A study of Mus musculus with 12 samples.

Results

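The unfolded protein response and protein folding in the endoplasmic reticulum (ER) were followed through 36 genes, given as a list of symbols and all found among the 32285 gene identifiers of the deposited feature lists. They were divided by role into 15 folding genes (chaperones, co-chaperones and disulfide isomerases), 4 genes of the sensors and their transcription factor XBP1, 6 genes of the PERK-ATF4 arm, 9 genes of ER-associated degradation and 2 genes of protein translocation into the ER. The response is started by sensors in the ER membrane when unfolded protein accumulates in the ER. IRE1 (encoded by Ern1) splices the mRNA of Xbp1, ATF6 is cut to release a transcription factor, and PERK (encoded by Eif2ak3) slows translation while raising ATF4, and the chaperones made in answer are found in quantity in cells that secrete much protein, such as plasma cells. High endothelial venules (HEV), the vessels through which lymphocytes enter a lymph node, have tall endothelial cells that make and export heavily glycosylated ligands for lymphocyte adhesion.

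RNA was counted in single cells of mouse lymph nodes in 12 libraries, with 1 library per group and so no replicate of any group. All mice were C57BL/6, 7 to 10 weeks old, with both Atg12 alleles floxed (ATG12 fl/fl x CDH5 CreER), and all received tamoxifen 5 times. The genotype label is CDH5 CreER positive or negative. The driver, a Cre recombinase switched on by tamoxifen under the promoter of Cdh5 (VE-cadherin), is active in endothelial cells of blood and lymphatic vessels alike. Mice had 4% oxazolone, a contact sensitiser, on the skin of the abdomen and were studied at day 3 or day 7, or had the acetone and olive oil solvent alone (vehicle). From each of these 6 combinations 2 fractions were made: the cells not held by CD45 beads, labelled CD31 (endothelial cells), and the cells held by them, labelled CD45 (immune cells). How many mice each library came from is not given in the sources used here. With 1 library per group, p-values by treatment or label measure departures from treatment and label effects that add up. Such departures may be technical or a real interaction of treatment and label. P-values between classes measure the spread between these libraries, which may be technical. A UMI is a tag that marks 1 captured molecule, and levels are UMIs summed over the cells of a class and scaled to the same total in each library (CPM). Where 6 levels are given they run from vehicle to day 3 to day 7, and within each time the level labelled Cre-negative stands first.

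The libraries held 36724887 to 76187731 UMIs, and 5698 to 10553 cells were left in each after filters. Cells were clustered without the genes described here, and clusters were named as "-like" classes from marker genes. The HEV marker genes summed to 15825 to 81480.3 CPM in HEV-like cells and to 447 to 952 CPM in the other blood endothelial-like cells. The lymphatic marker genes summed to 2406 to 3315 CPM in lymphatic endothelial-like and to 34.1 to 83.1 CPM in HEV-like cells, but lymphatic endothelial-like cells also held 2771 to 5071 CPM of the HEV markers, mostly Glycam1. The plasma cell marker genes summed to 29478 to 38776 CPM in plasma-like cells of the CD45 fraction. Atg12 itself showed no drop by label, at 44.8 and 53.0, 44.7 and 50.6, and 43.9 and 43.8 CPM in HEV-like cells, and was higher under the Cre-positive label in the other blood endothelial-like cells (55.5 and 80.4, 47.6 and 65.8, and 56.6 and 74.4 CPM) and the lymphatic ones (58.0 and 82.3, 48.2 and 73.5, and 52.0 and 59.1 CPM). The assay counts the 3-prime ends of transcripts and cannot show whether a part further upstream was deleted, so the level of Atg12 checks nothing here, and Cre labels are used below as labels only. 3 clusters were kept out of all classes after their genes had been seen: an endothelial cluster led by Prnd, a fibroblastic cluster led by Ptn, and a cluster of cells with few UMIs, of which 2460 cells lay in the day 3 CD31 library labelled Cre-positive and 45 to 639 in each other CD31 library. Cells of clusters that were given no name were left out too. They made up 13.2% of cells in the day 3 CD31 library labelled Cre-positive and 10.9% in the one labelled Cre-negative. In the vehicle CD31 library labelled Cre-positive they made up 5.24%. Between 7 and 31 cell barcodes were shared by any pair of libraries, at most 0.38% of the smaller library.

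Several members share a short promoter element known from the response to ER stress, shown here because 7 of the 13 folding genes in the promoter table hold its spelling. The ER stress response element (ERSE) is the spelling CCAAT, then any 9 bases, then CCACG, searched on both strands in RefSeq promoters (build GRCm38.p6) from 250 bases before to 50 after the start that the promoter table gives. It was present in 9 of the 32 members in the promoter table (28.1%), against 37 of 27025 genes (0.137%). The element was searched because it is known from the response to which the members belong, so these shares describe the list and test nothing. Of the 13 folding genes in the table, 7 held it, as did 2 of 8 degradation genes, and it was spelled in none of the 3 sensor genes, 6 PERK-ATF4 genes or 2 translocation genes. A related spelling, ERSE-II (ATTGG, any 1 base, then CCACG), was present in 2 members (6.25%) and in 12 genes in all (0.044%). The spelling TGATGNAAT, one form of the amino acid response element bound by ATF4, was in 0 of 32 members and 293 genes (1.08%). Other forms of that element and sites outside the window were not searched, so this does not show that the members lack it. Manf, Hyou1, Atf6 and Derl1 are not in the table. The elements are printed 5′ to 3′ in the sense of the spelling, with its fixed letters in capitals.
Hspa5 (chr2:34772025-34772043): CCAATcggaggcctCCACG
Hsp90b1, upstream element (chr10:86705638-86705656): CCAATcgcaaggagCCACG
Hsp90b1, downstream element (chr10:86705533-86705551): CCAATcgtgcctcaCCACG
Calr (chr8:84847075-84847093): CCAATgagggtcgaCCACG
Canx (chr11:50325800-50325818): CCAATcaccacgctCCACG
Pdia6 (chr12:17266491-17266509): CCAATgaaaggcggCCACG
Dnajc3 (chr14:118937827-118937845): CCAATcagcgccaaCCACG
Creld2 (chr15:88819520-88819538): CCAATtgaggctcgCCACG
Derl3 (chr10:75893242-75893260): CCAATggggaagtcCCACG
Syvn1 (chr19:6046532-6046550): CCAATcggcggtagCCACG
Herpud1, ERSE-II (chr8:94386377-94386387): ATTGGgCCACG
Dnajb11, ERSE-II (chr16:22857852-22857862): ATTGGcCCACG

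The ERSE of Hspa5, Dnajc3, Canx, Pdia6 and Syvn1 ran in the direction of the gene, and that of Calr, Derl3 and Creld2 against it. Hsp90b1 held 1 of each. The 250 bases before the table's start, which for Hspa5 and Herpud1 is not the first base of the gene extent given below, are printed for Hspa5, the gene of the chaperone BiP, for Creld2, an ER protein with disulfide isomerase activity that was among the genes called at day 3 below, and for Herpud1, which held ERSE-II, with elements in capitals on the gene's strand.
Hspa5 promoter (chr2:34771840-34772089, plus strand): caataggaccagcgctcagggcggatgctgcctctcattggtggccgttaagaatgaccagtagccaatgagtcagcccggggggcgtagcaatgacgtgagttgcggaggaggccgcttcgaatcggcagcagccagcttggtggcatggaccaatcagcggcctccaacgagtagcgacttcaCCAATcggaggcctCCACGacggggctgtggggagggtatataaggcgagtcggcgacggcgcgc
Creld2 promoter (chr15:88819396-88819645, plus strand): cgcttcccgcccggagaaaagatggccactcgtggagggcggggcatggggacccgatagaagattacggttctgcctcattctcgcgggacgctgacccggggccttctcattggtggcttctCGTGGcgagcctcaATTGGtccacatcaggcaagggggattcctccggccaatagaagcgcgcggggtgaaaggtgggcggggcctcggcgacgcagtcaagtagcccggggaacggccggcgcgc
Herpud1 promoter (chr8:94386179-94386428, plus strand): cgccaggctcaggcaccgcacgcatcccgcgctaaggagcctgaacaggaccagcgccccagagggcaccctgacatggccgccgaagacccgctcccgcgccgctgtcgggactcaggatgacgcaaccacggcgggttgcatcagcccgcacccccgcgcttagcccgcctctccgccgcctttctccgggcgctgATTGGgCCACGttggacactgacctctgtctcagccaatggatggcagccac

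The summed level of all 36 members differed between cell classes, some of which overlapped. Plasma-like cells, which are filled with rough ER, had 23252, 17854 and 23509.8 CPM in the 3 CD45 libraries that held at least 20 of them, which were vehicle and day 3 labelled Cre-negative and day 7 labelled Cre-positive. B cell-like cells, the lineage they come from, had 3245 and 3061, 4209 and 4126, and 3139.6 and 2958 CPM in the CD45 fraction. Within those 3 libraries plasma-like cells stood 7.17, 4.24 and 7.95 times above B cell-like cells in CPM. After TMM scaling, described below, these ratios were larger. The 142, 29 and 148 plasma-like cells behind these values are few, and the library with the fewest had the smallest ratio.

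Plasmacytoid dendritic-like cells, which are interferon-secreting cells of the CD45 fraction, came next by median at 6589 to 8692 CPM. An estimate of free RNA from immunoglobulin and J chain transcripts gave 12.8% to 50.0% of their UMIs (50.0% is the most the estimate allows). It counts any such transcripts made by the cells themselves as free RNA, so it may be too high. Fibroblast-like cells, the makers of the node's collagen framework, had 5171 and 5429.8, 8545 and 7508, and 5333 and 4674 CPM, and both day 3 libraries stood above the other 4. These cells were taken from the CD45 fraction, although it is labelled as immune cells, because too few lay in the CD31 fraction. Why they were held there was not tested. In HEV-like cells the sum was 4976 and 4066, 6561 and 5308, and 5086 and 4251 CPM, and in lymphatic endothelial-like cells 5348 and 4118, 5581 and 4754, and 5309.7 and 4106 CPM. It was smaller in the other blood endothelial-like cells, with 3829 and 3377, 4419 and 3948, and 4042 and 3284 CPM. Lowest of these classes in the CD45 fraction were T cell-like cells, at 2572 and 2429, 2729 and 2767, and 2528 and 2472 CPM. The range of lymphatic endothelial-like cells lay within that of HEV-like cells, while in each of the 6 CD31 libraries HEV-like cells stood above the other blood endothelial-like cells. Free RNA, read from droplets without cells, held 2889 to 4589 CPM of the members in the libraries, which overlaps the range of the endothelial classes.

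**Figure D1:**
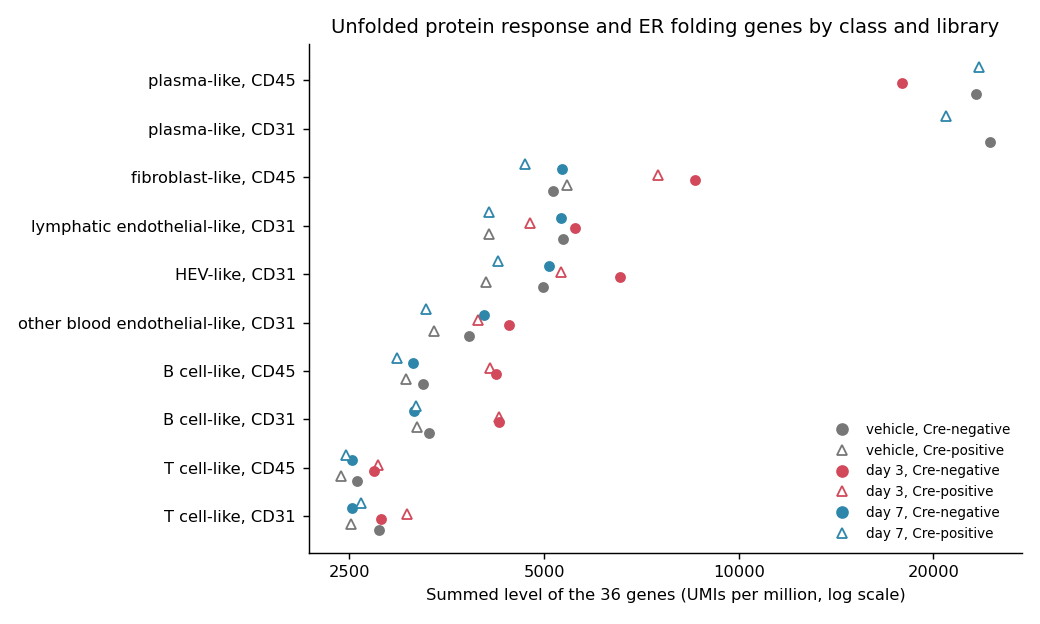
Summed CPM of the 36 members by cell class on a log axis, 1 point per library, coloured by treatment and shaped by Cre label. Plasma-like cells lie between 17854 and 24458 CPM and T cell-like cells between 2429 and 3073 CPM.

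The arms did not follow one order. Folding genes had a median over libraries of 15722 CPM in plasma-like, 3637 in fibroblast-like, 3139 in lymphatic endothelial-like, 2997 in HEV-like, 2415 in other blood endothelial-like, 1573 in B cell-like and 1278 in T cell-like cells of the CD45 fraction or, for endothelium, the CD31 fraction. The sensor arm, most of which was Xbp1 in plasma-like and HEV-like cells, had 1744 CPM in plasma-like and 438 in HEV-like cells, against 280.2 in lymphatic endothelial-like and 213 in other blood endothelial-like cells. On the CPM scale the PERK-ATF4 arm was lower in plasma-like cells, at 122.6 to 206.9 CPM, than in B cell-like cells, at 293.7 to 428.3 CPM, with no overlap. That order depends on the scale: plasma-like against B cell-like, the log2 ratio in the vehicle, day 3 and day 7 library was -1.21, -1.68 and -0.51 in CPM, and -0.36, -0.73 and 0.18 after TMM scaling, which sets the bulk of genes level between the classes. In HEV-like cells that arm had 301 to 470.7 CPM, and in lymphatic endothelial-like cells 263.2 to 418.1 CPM.

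The comparison of HEV-like with other blood endothelial-like cells asks which members differ between kinds of blood vessel within the same libraries. HEV-like cells had more of most members: of 35 members tested, 26 were higher and 3 lower by edgeR's quasi-likelihood test with Benjamini-Hochberg adjustment at 0.05. Of all genes, 32.1% were called higher and 31.7% lower. The median log2 difference was 0.46 over the members and -0.02 over all genes tested. The 6 libraries enter as blocks, and Derl3, near 0 in both classes, did not pass the expression filter. Leaving out 1 library at a time gave 27 to 29 called members.

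These calls use TMM scaling, and the level of each class can also be set by its UMI total alone. That moved the median of all genes by a log2 of -0.32 for HEV-like against other blood endothelial-like cells, -0.80 for plasma-like and 0.32 for fibroblast-like against B cell-like cells, and by less than 0.1 in every other comparison. The shares of all genes called between classes are those of TMM scaling, and none is given here beside counts with UMI totals. With UMI totals, 17 members were higher and 8 lower in HEV-like cells, so that the TMM-scaled differences below are relative to the bulk of genes. Atf4 (-0.08) and Creld2 (-0.02) then had a log2 difference below 0 and lost their calls, as did Pdia4, Hsp90b1, Dnajb9, Edem1, Syvn1, Ssr1 and Trib3, whose differences stayed above 0. Atf6, Ddit3, Herpud1, Dnajc3 and Dnajb11 joined Chac1, Sel1l and Selenok among the members called lower.

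Xbp1 (ENSMUSG00000020484, chromosome 11, 5520659 to 5525893, build GRCm38), the transcription factor of the IRE1 branch, was counted at 329.9 and 239.7, 381 and 264, and 345 and 255 CPM in HEV-like cells. In the other blood endothelial-like cells it was counted at 114 and 99.5, 129.8 and 117, and 131 and 96.9 CPM, and the classes did not overlap. The log2 difference was 1.70 (SE 0.07, adjusted p 4.28e-09) by edgeR's quasi-likelihood test. Ern1, the sensor that splices Xbp1 mRNA, was higher by 1.75 (SE 0.07, adjusted p 1.81e-09). The other sensors did not pass the test: Eif2ak3 had a log2 difference of 0.20 (SE 0.14, adjusted p 0.238) and Atf6 of 0.08 (SE 0.08, adjusted p 0.382). A 3-prime assay does not show whether Xbp1 mRNA was spliced.

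Of the folding genes 13 of 15 were higher in HEV-like cells and none was lower under TMM scaling. Sdf2l1 (ENSMUSG00000022769, chromosome 16, 17130138 to 17132383), which works with BiP and ER-resident J proteins, had 46.9 and 33.4, 74.7 and 54.4, and 44.0 and 30.2 CPM in HEV-like and 22.7 and 12.9, 30.5 and 25.5, and 21.6 and 11.4 CPM in other blood endothelial-like cells. Every HEV-like value but that of day 7 labelled Cre-positive exceeded every value of the other class, and the log2 difference was 1.504 (SE 0.08, adjusted p 1.22e-08). Calr, the lectin chaperone of glycoproteins, had 403 and 279, 458 and 342, and 406 and 306 CPM against 244 and 164, 256 and 190.4, and 264 and 171 CPM, a log2 difference of 1.09 (SE 0.06, adjusted p 1.21e-08).

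Hspa5 (ENSMUSG00000026864, chromosome 2, 34771970 to 34777547), the chaperone that also holds the sensors inactive, had 451 and 380.2, 848 and 560.0, and 504 and 353 CPM in HEV-like and 299 and 264, 468 and 369, and 361 and 221 CPM in other blood endothelial-like cells. Within each library it was higher in HEV-like cells, by a log2 of 0.94 (SE 0.06, adjusted p 1.10e-07). The J proteins Dnajb11 (0.07 (SE 0.07, adjusted p 0.431)) and Dnajc3 (0.01 (SE 0.07, adjusted p 0.932)), which stimulate BiP, did not pass the test.

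In the PERK-ATF4 arm, Ppp1r15a, the subunit that reverses the block on translation and an early stress gene in its own right, was higher by 1.20 (SE 0.14, adjusted p 1.32e-05). Atf4 (ENSMUSG00000042406, chromosome 15, 80255184 to 80257541) had 125 and 103, 90.0 and 97.3, and 124 and 91.0 CPM in HEV-like and 105 and 122, 98.7 and 99.0, and 134 and 106 CPM in other blood endothelial-like cells. In CPM it was the lower one in HEV-like cells in 5 of 6 libraries, while the TMM-scaled log2 difference was 0.24 (SE 0.07, adjusted p 0.0138). Asns, the asparagine synthetase driven by ATF4, was higher by 0.63 (SE 0.10, adjusted p 1.28e-04) and Trib3, a pseudokinase induced by ATF4 and CHOP, by 0.43 (SE 0.14, adjusted p 0.0212). Ddit3 (ENSMUSG00000025408, chromosome 10, 127290774 to 127296288), which encodes CHOP, did not pass the test, with -0.11 (SE 0.09, adjusted p 0.323). Chac1 was lower, with -2.33 (SE 0.53, adjusted p 0.00238), but it had at most 0.790 CPM in HEV-like cells, so that this value depends on the prior count. Dissociation-related immediate-early genes moved with Ppp1r15a here: 9 of 11 were higher in HEV-like cells and 1 was lower (7 and 1 with UMI totals), and their part in these differences was not tested.

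The degradation arm, which pulls misfolded proteins out of the ER for the proteasome, was split: Selenos (1.14 (SE 0.07, adjusted p 9.87e-08)), Derl2 (0.70 (SE 0.07, adjusted p 3.49e-06)) and Derl1 (0.54 (SE 0.06, adjusted p 5.82e-06)) of the retrotranslocation complex were the largest of 5 that were higher. Sel1l, the partner of the ubiquitin ligase encoded by Syvn1, was lower, with -0.42 (SE 0.07, adjusted p 1.32e-04), and so was Selenok, with -0.18 (SE 0.06, adjusted p 0.0171), although that value was 0.01 with the cluster led by Prnd counted among the other blood endothelial-like cells. Herpud1 (ENSMUSG00000031770, chromosome 8, 94386438 to 94395377), which holds the degradation complex together, did not pass the test, at -0.15 (SE 0.07, adjusted p 0.0592). Of the translocation genes, Sec61b, a subunit of the channel, had 446 and 311, 653 and 574, and 482 and 452 CPM in HEV-like and 225 and 184, 253 and 290.0, and 210.1 and 222 CPM in other blood endothelial-like cells, a log2 difference of 1.37 (SE 0.08, adjusted p 5.63e-08). Ssr1, of the translocon-associated complex, was higher by 0.45 (SE 0.06, adjusted p 4.33e-05).

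The rest of the secretory route showed the same side. Of 36 other secretory pathway genes 32 were higher in HEV-like cells and none was lower, led by the retrieval receptor Kdelr3 at a log2 of 2.27, Ssr4 at 1.57 and Sec24d at 1.34. Of 22 other ER folding genes tested, 15 were higher and 1 lower, with the prolyl isomerase Fkbp11 at 2.79. Of 23 targets of ATF4 tested, 12 were higher and 3 lower. With UMI totals these counts were 19 and 3, 8 and 4, and 6 and 8, so the direction of the ATF4 targets depends on the scaling.

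**Figure D2:**
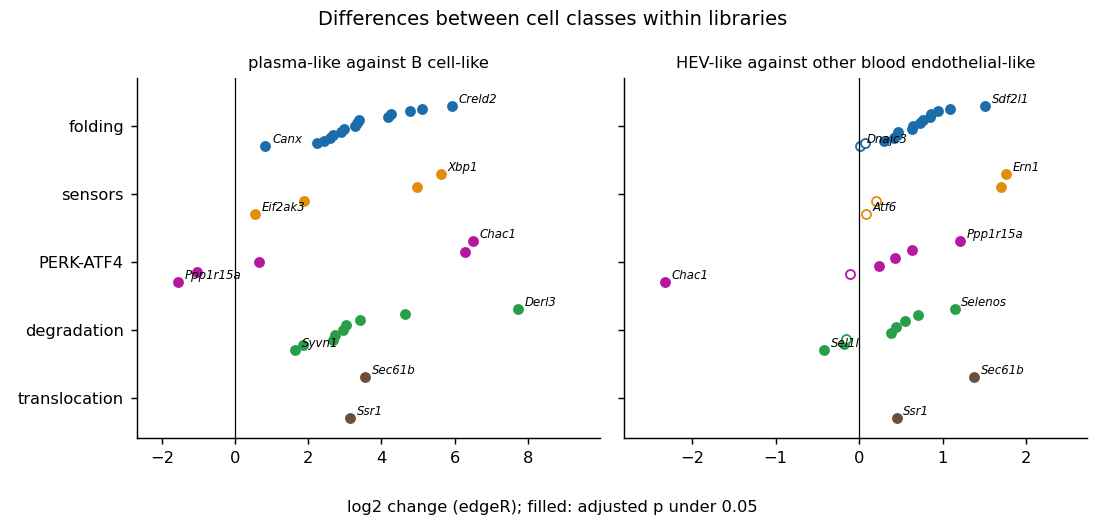
Log2 difference of each member tested between cell classes, 1 point per gene, grouped by arm and filled where the adjusted p was under 0.05. In the comparison of plasma-like with B cell-like cells all points lie above 0 under TMM scaling apart from Ddit3 and Ppp1r15a, and with UMI totals Atf4, Canx and Eif2ak3 also lie below 0.

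Plasma-like cells were compared with B cell-like cells in the 3 CD45 libraries that held enough of them, a fit chosen after the cell numbers were seen. Of 35 members tested, 33 were higher in plasma-like cells and 2 were lower, while 28.7% of all genes were called higher and 28.9% lower. The median log2 difference was 3.04 over the members and -0.07 over all genes. In the order vehicle, day 3, day 7, Hspa5 had 1404, 913 and 1598 CPM in plasma-like and 268, 393 and 239 CPM in B cell-like cells, a log2 difference of 2.97 (SE 0.19, adjusted p 1.55e-10). The classes stood well apart in each library. The cycling markers also differed, at 390 to 748 CPM in plasma-like cells and 8.45 to 17.97 CPM in B cell-like cells of the CD45 fraction, and their part in these differences was not tested. With UMI totals 30 members were higher and 2 lower.

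Hsp90b1, the ER form of HSP90, had 7041, 4319.7 and 6511 CPM in plasma-like and 281, 474 and 208 CPM in B cell-like cells, a log2 difference of 5.11 (SE 0.23, adjusted p 1.83e-12). Creld2 was higher by 5.92 (SE 0.21, adjusted p 7.62e-14) and Sdf2l1 by 4.78 (SE 0.24, adjusted p 4.88e-12). The largest difference among the members was that of Derl3, a derlin of secretory cells, which had 269, 179 and 277 CPM against 1.80, 3.80 and 0.660 CPM and a log2 difference of 7.74 (SE 0.28, adjusted p 6.36e-14). Edem1, which trims mannose from misfolded glycoproteins, was higher by 4.64 (SE 0.13, adjusted p 3.10e-15), Sel1l by 3.41 (SE 0.16, adjusted p 1.87e-12) and Herpud1 by 2.69 (SE 0.15, adjusted p 4.33e-11). All 9 degradation genes and all 15 folding genes were called higher, although the lectin chaperone Canx had -0.01 with UMI totals.

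Xbp1, which plasma cells need for antibody secretion, had 1074, 1481 and 1156 CPM in plasma-like and 35.4, 71.8 and 34.0 CPM in B cell-like cells, a log2 difference of 5.62 (SE 0.15, adjusted p 1.86e-15). The day 3 library had the highest value in both classes. Ern1 was higher by 4.96 (SE 0.14, adjusted p 3.30e-15), Eif2ak3 by 0.53 (SE 0.13, adjusted p 0.00137) (-0.29 with UMI totals) and Atf6 by 1.88 (SE 0.15, adjusted p 4.71e-09). Sec61b was higher by 3.55 (SE 0.14, adjusted p 1.49e-13) and Ssr1 by 3.13 (SE 0.12, adjusted p 1.76e-13).

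The 2 members that were lower in plasma-like cells belong to the PERK-ATF4 arm. Ddit3 had 11.3, 7.21 and 16.4 CPM in plasma-like and 47.3, 46.1 and 45.7 CPM in B cell-like cells, a log2 difference of -1.05 (SE 0.19, adjusted p 1.43e-04). Ppp1r15a had 39.8, 16.2 and 41.0 CPM against 235, 226 and 139 CPM, a log2 difference of -1.58 (SE 0.18, adjusted p 6.75e-07). Neither gene's values overlapped between the classes. Atf4 had 101, 79.4 and 123 CPM in plasma-like against 121, 119.7 and 108 CPM in B cell-like cells, lower in 2 of the 3 libraries, while the TMM-scaled log2 difference was 0.65 (SE 0.13, adjusted p 2.43e-04) and that with UMI totals -0.17. Of the dissociation immediate-early genes 4 of 10 were higher and 4 lower (2 and 6 with UMI totals), with Nr4a1 at -3.66, Junb at -1.97 and Jun at 1.63 on the log2 scale, and of the cytosolic heat shock genes 3 of 14 were higher and 4 lower (1 and 12 with UMI totals). Their part in the values of Ddit3 and Ppp1r15a was not tested. Asns and Chac1 were called higher, but both were at most 1 CPM in B cell-like cells. Of other secretory pathway genes 35 of 36 were higher and 1 was lower, of other ER folding genes 19 of 20 and 1, and of ATF4 targets 18 of 23 and 1. With UMI totals these were 34 and 1, 15 and 1, and 15 and 5.

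Lymphatic endothelial-like cells differed from the other blood endothelial-like cells in both directions, with 19 members higher and 9 lower of 35 tested, where 32.4% of all genes were called higher and 32.1% lower. Ern1 was higher by 1.96 (SE 0.10, adjusted p 7.47e-09) and Eif2ak3 by 0.66 (SE 0.08, adjusted p 2.33e-05). Xbp1 had 79.3 and 52.2, 96.5 and 71.2, and 79.5 and 57.4 CPM, below the other blood endothelial-like cells of the same library each time, and a log2 difference of -0.76 (SE 0.07, adjusted p 1.50e-06). In HEV-like cells both genes had been higher. Hspa5 was higher by 0.41 (SE 0.07, adjusted p 2.09e-04), Hyou1, an ER chaperone related to HSP70, by 0.65 (SE 0.09, adjusted p 5.37e-05), Calr by 0.62 (SE 0.06, adjusted p 3.50e-06) and Hsp90b1 by 0.53 (SE 0.07, adjusted p 5.05e-05). Sdf2l1 had 0.34 (SE 0.12, adjusted p 0.0242). In the PERK-ATF4 arm 2 of 6 genes were higher, Ppp1r15a by 0.92 (SE 0.07, adjusted p 1.77e-07) and Trib3 by 0.45 (SE 0.15, adjusted p 0.0195), and 4 lower. Asns had 1.99 and 1.64, 5.36 and 3.75, and 3.50 and 1.70 CPM against 15.6 and 13.2, 18.8 and 19.03, and 11.7 and 14.4 CPM, lower in every library (adjusted p 2.07e-07), and the log2 difference was -0.35 (SE 0.09, adjusted p 0.00490) for Ddit3 and -0.32 (SE 0.06, adjusted p 8.34e-04) for Atf4. Chac1 was called lower as well, at no more than 1.07 CPM in lymphatic endothelial-like cells. The degradation arm was split, with Selenos (0.66), Derl1 (0.54) and Derl2 (0.25) higher on the log2 scale and Selenok (-0.47) and Herpud1 (-0.26 (SE 0.07, adjusted p 0.00365)) lower. Both translocation genes were higher, Sec61b by 0.52 and Ssr1 by 0.48. Of the dissociation immediate-early genes 1 of 11 was higher and 5 lower (1 and 4 with UMI totals). The plasma cell markers summed to 330.5 CPM in lymphatic endothelial-like cells at vehicle labelled Cre-negative, 215.7 CPM at day 7 labelled Cre-positive and 33.4 to 55.2 CPM in the other 4 libraries, and their part in these differences was not tested.

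Fibroblast-like cells were compared with B cell-like cells of the same CD45 libraries, also a fit chosen after the cell numbers were seen, and 17 of 33 members were higher and 9 lower, against 39.7% and 42.1% of all genes. The isomerase P4hb, a subunit of the enzyme that hydroxylates collagen, had 242 and 226, 260.3 and 334, and 182 and 213 CPM in fibroblast-like and 55.3 and 40.2, 59.7 and 55.1, and 37.6 and 44.5 CPM in B cell-like cells, a log2 difference of 1.99 (SE 0.12, adjusted p 1.45e-08). Pdia3 was higher by 1.39 (SE 0.11, adjusted p 2.10e-07), Hsp90b1 by 1.30 (SE 0.11, adjusted p 4.85e-07), Hspa5 by 0.84 (SE 0.13, adjusted p 1.01e-04) and Xbp1 by 1.36 (SE 0.16, adjusted p 6.99e-06). The sensors split: Ern1 was higher by 2.25 (SE 0.12, adjusted p 7.05e-09), while Eif2ak3 (-1.86 (SE 0.11, adjusted p 1.28e-08)) and Atf6 (-1.53 (SE 0.12, adjusted p 1.74e-07)) were lower. Atf4 (-0.60 (SE 0.12, adjusted p 6.69e-04)), Ddit3 (-0.82 (SE 0.09, adjusted p 6.06e-06)) and Herpud1 (-0.88 (SE 0.10, adjusted p 1.03e-05)) were lower too, as were Ppp1r15a (-1.56), Syvn1 (-1.63) and Edem1 (-0.69). Selenos (0.61), Sel1l (0.31), Derl1 (0.26) and Ssr1 (1.02) were higher on the log2 scale, as was Asns, at 2.81 to 7.66 CPM against at most 0.72 CPM in B cell-like cells. Of the dissociation immediate-early genes 5 of 11 were higher and 2 lower (6 and 1 with UMI totals). Sdf2l1 was not called (-0.02 (SE 0.19, adjusted p 0.920)). With UMI totals 20 members were higher and 7 lower.

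T cell-like cells had less of most members than B cell-like cells. In the CD45 fraction 22 of 32 members tested were lower and 5 higher, against 33.5% and 36.6% of all genes. The lowest log2 differences were those of Atf6, at -2.49 (SE 0.12, adjusted p 2.45e-10), Syvn1, at -2.11 (SE 0.08, adjusted p 1.01e-11), and Eif2ak3, at -1.55 (SE 0.07, adjusted p 1.35e-10). Herpud1 (-1.24), Sdf2l1 (-1.23), Xbp1 (-0.99), Atf4 (-0.63), Ddit3 (-0.54) and Hspa5 (-0.48) were all lower on the log2 scale, as were Pdia6 (-1.07), Ppp1r15a (-0.52), Selenok (-0.31), Derl2 (-0.23) and Sel1l (-0.20). The dissociation immediate-early genes were lower for 8 of 11 and higher for 2 (9 and 1 with UMI totals), with Nr4a1 at -1.94 and Zfp36 at -1.78, and their part in these differences was not tested. The 5 that were higher in T cell-like cells were Dnajc3, Ern1, Sec61b, Edem1 and Pdia3, with log2 differences of 0.89, 0.76, 0.53, 0.47 and 0.29.

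The comparison by Cre label asks what differs in these genes between mice labelled as lacking and as having the endothelial driver that deletes Atg12, a gene needed to form autophagosomes. In all 3 endothelial classes the summed level of the members was lower under the Cre-positive label at every time, in 9 of 9 pairs. These 9 come from the same 3 pairs of CD31 libraries, so they are not independent. Free RNA moved with the label too, holding 4228 and 3279 CPM of the members at vehicle, 4270.1 and 3781 at day 3 and 4082 and 3567 at day 7 in the CD31 libraries. With free RNA subtracted all 9 pairs kept that side, with log2 ratios of -0.44 to -0.16. The share subtracted was 0.845% to 3.63% of UMIs in HEV-like and 1.18% to 2.10% in other blood endothelial-like cells. In lymphatic endothelial-like cells it was 20.2% at vehicle labelled Cre-negative and 14.2% at day 7 labelled Cre-positive, and 0.796% to 2.46% elsewhere. The high shares stood where the plasma cell markers were high, and the part of free RNA was not tested further. EdgeR's test over the 6 libraries of a class called no member in any class. It fits treatment and label together with 2 residual degrees of freedom. In HEV-like cells, edgeR's quasi-likelihood test with Benjamini-Hochberg adjustment called 0 of 34 members, and DESeq2 called 0, where 0.0537% of all genes were called higher and 0.0% lower by edgeR. At an unadjusted p under 0.05, 10 members were lower and none higher, against 2.09% and 2.38% of all genes. The median log2 difference was -0.24 over the members and 0.01 over all genes. Left out in turn, the vehicle library labelled Cre-positive gave 2 members called lower (Hspa5 and Xbp1), where 0.566% of all genes were, and the vehicle library labelled Cre-negative 1 (Hspa5), where 0.374% were, in fits that assume the lone vehicle library to vary like the others.

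The sum of the folding genes was lower under the Cre-positive label in each endothelial pair. It differed between labels in HEV-like cells by a log2 of -0.33 at vehicle, -0.38 at day 3 and -0.32 at day 7. In the other blood endothelial-like cells it differed by -0.32, -0.24 and -0.39, and in lymphatic endothelial-like cells by -0.51, -0.41 and -0.46. In T cell-like cells of the same CD31 libraries the values were -0.08, 0.14 and 0.03, and in their B cell-like cells -0.06, -0.05 and 0.09. Of 15 folding genes, 10 were lower on the Cre-positive side of all 3 pairs in HEV-like cells, where 8.4% of all genes were. The count was 12 in the other blood endothelial-like cells (16.6%) and 13 in lymphatic endothelial-like cells (13.7%). In B cell-like cells of the CD31 fraction 1 was (8.03%) and in T cell-like cells none (8.88%). In the CD45 fraction 5 were in B cell-like (11.6%), 4 in T cell-like (12.0%) and 3 in fibroblast-like cells (14.7%). The sensor arm differed by -0.20, -0.35 and -0.38 in HEV-like, by -0.01, -0.15 and -0.32 in other blood endothelial-like and by 0.15, -0.22 and -0.07 in lymphatic endothelial-like cells. Xbp1 alone had -0.46, -0.53 and -0.44 in HEV-like cells, a larger size than the folding sum in each pair. No test compared the arms.

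Of the members that passed the expression filter, those lower in all 3 pairs were 16 of 34 in HEV-like cells, where 8.4% of all genes were, 16 of 35 in other blood endothelial-like cells (16.6%) and 19 of 34 in lymphatic endothelial-like cells (13.7%). They were 1 of 32 in B cell-like (8.03%) and 0 of 32 in T cell-like cells (8.88%) of the CD31 fraction. In the CD45 fraction they were 9 of 33 in fibroblast-like (14.7%), 11 of 33 in B cell-like (11.6%) and 7 of 33 in T cell-like cells (12.0%). The endothelial cluster led by Prnd, outside the classes, had 17 of all 36 members (17.2%). Higher in all 3 pairs were 0 members in HEV-like, 1 in other blood endothelial-like and 0 in lymphatic endothelial-like cells. In CD31-fraction B cell-like and T cell-like cells 0 and 2 were higher. In the CD45 fraction 4 were in fibroblast-like, 6 in B cell-like and 7 in T cell-like cells. The share of all genes on that side is not given here. The members lower in all 3 pairs in each of the 3 endothelial classes were Hspa5, Hsp90b1, Calr, Pdia3, Pdia4, Pdia6, Sdf2l1, Creld2, Xbp1, Herpud1 and Selenos.

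**Figure D3:**
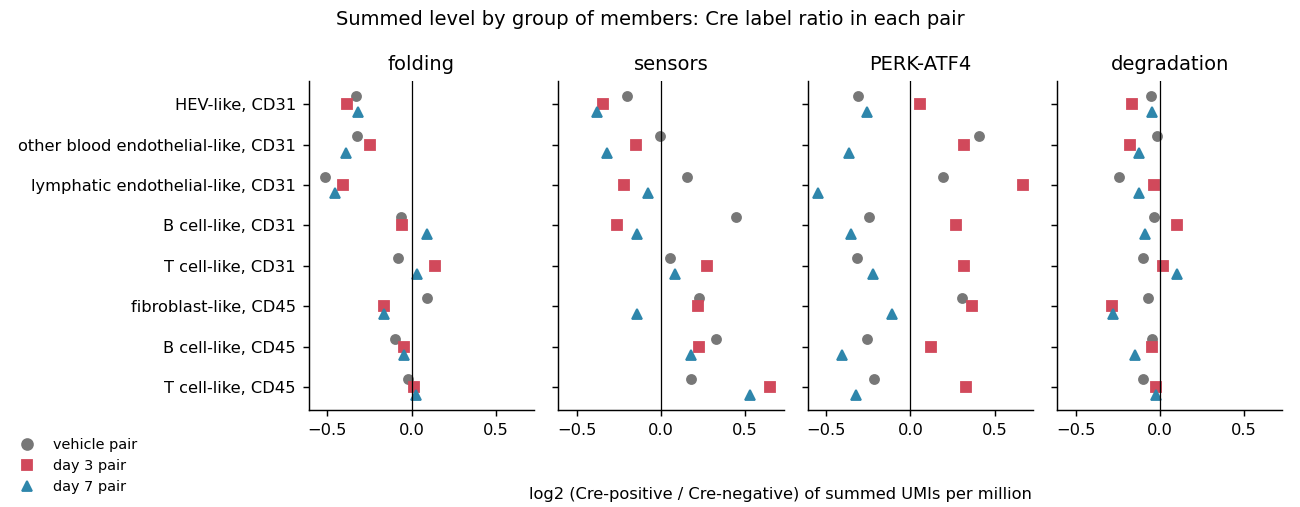
Log2 ratio of summed CPM, library labelled Cre-positive over library labelled Cre-negative, for the folding, sensor, PERK-ATF4 and degradation arms in each class, 1 point per time point. Folding values of the endothelial classes lie between -0.51 and -0.24, while PERK-ATF4 values lie on both sides of 0.

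In HEV-like cells Hspa5 was counted at 451 and 380.2, 848 and 560.0, and 504 and 353 CPM, lower under the Cre-positive label in each pair, with a log2 difference of -0.49 (SE 0.13, p 0.00527, adjusted p 0.662) by edgeR's quasi-likelihood test with Benjamini-Hochberg adjustment. Calr had 403 and 279, 458 and 342, and 406 and 306 CPM and -0.49 (SE 0.12, p 0.00261, adjusted p 0.464). Hsp90b1 had 542 and 376, 682 and 566, and 568 and 395 CPM and -0.48 (SE 0.13, p 0.00539, adjusted p 0.662). Each difference was seen in 3 of 3 pairs, and none passed the adjusted threshold.

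Sdf2l1 had 46.9 and 33.4, 74.7 and 54.4, and 44.0 and 30.2 CPM in HEV-like cells and a log2 difference of -0.53 (SE 0.12, p 0.00233, adjusted p 0.454). Xbp1, at 329.9 and 239.7, 381 and 264, and 345 and 255 CPM, had the lowest adjusted p of the members, with a log2 difference of -0.51 (SE 0.12, p 0.00190, adjusted p 0.397). For Xbp1 and Calr the 3 libraries labelled Cre-negative all stood above the 3 labelled Cre-positive, whatever the treatment, while for Hspa5, Hsp90b1 and Sdf2l1 the ranges overlapped across treatments. The share of all genes so separated by label is not given here, so no weight can be put on that separation. Pdia6, Pdia3, Pdia4, Selenos and Sec61b, the rest of the 10, had log2 differences from -0.47 to -0.30. Atf4 had 125 and 103, 90.0 and 97.3, and 124 and 91.0 CPM and -0.24 (SE 0.15, p 0.139, adjusted p 0.998), Ddit3 had -0.12 (SE 0.16, p 0.480, adjusted p 0.998) and Herpud1 -0.20 (SE 0.12, p 0.130, adjusted p 0.998). In these libraries Glycam1, the leading HEV marker, stood at 26196 and 21822, 27659.7 and 14519.8, and 78102 and 12672 CPM in HEV-like cells, and its part in the result was not tested.

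**Figure D4:**
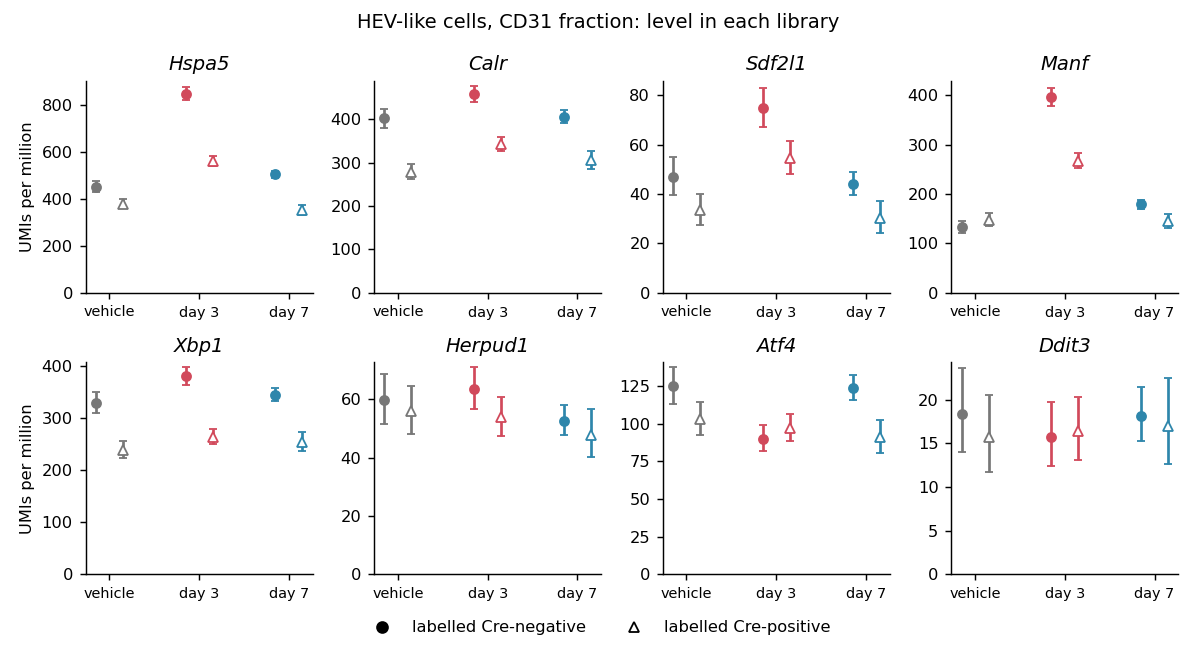
CPM of 8 members in HEV-like cells by treatment on linear axes, 1 point per library, filled circles for libraries labelled Cre-negative and open triangles for those labelled Cre-positive, with bars for the exact Poisson interval at 95% (counting error only). For Hspa5, Calr, Sdf2l1, Xbp1 and Herpud1 the triangle is the lower point of each pair, while for Atf4 and Ddit3 it is the higher one at day 3.

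In the other blood endothelial-like cells edgeR and DESeq2 each called 0 of 35 members by label, where edgeR called 0.0% of all genes higher and 0.0% lower, and 6 were lower at an unadjusted p under 0.05 with none higher, against 0.747% and 1.63% of all genes. Sdf2l1 had 22.7 and 12.9, 30.5 and 25.5, and 21.6 and 11.4 CPM and a log2 difference of -0.59 (SE 0.17, p 0.0113, adjusted p 1.00). Calr had -0.49, Hspa5 -0.36, Xbp1 -0.21, Herpud1 -0.14, Atf4 0.01 and Ddit3 0.08 on the log2 scale. In lymphatic endothelial-like cells both tools again called 0 of 34, where edgeR called 0.00775% of all genes higher and 0.0% lower, and 9 members were lower at an unadjusted p under 0.05 with none higher, against 1.05% and 1.53% of all genes. Sdf2l1 had 35.8 and 16.8, 46.9 and 22.2, and 34.8 and 13.1 CPM there and the largest label difference of any member tested in an endothelial class, a log2 of -1.15 (SE 0.17, p 1.04e-04, adjusted p 0.668). Its 3 values in libraries labelled Cre-negative lay above the other 3, and the share of all genes so separated is not given here. Hspa5 had -0.48, Xbp1 -0.46, Herpud1 -0.05, Atf4 -0.05 and Ddit3 0.01. The plasma cell markers, high in the vehicle library labelled Cre-negative and the day 7 library labelled Cre-positive as given above, had 55.2 and 43.8 CPM at day 3, and their part in the result was not tested.

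The label values of the PERK-ATF4 arm varied with time. Its sum was higher in the library labelled Cre-positive at day 3 in all 8 classes fitted, by a log2 of 0.06 to 0.67, and lower at day 7 in all 8, by -0.11 to -0.55, while at vehicle the sign differed between classes. Classes of a fraction share their libraries, so these 8 are not independent. In HEV-like cells the sums were 471 and 379.9, 301 and 313, and 383 and 320.1 CPM and in lymphatic endothelial-like cells 357 and 408, 263 and 418, and 409 and 279 CPM. Ppp1r15a made up most of it, at 229.8 and 291, 152 and 291, and 261 and 163 CPM in lymphatic endothelial-like cells. The dissociation immediate-early genes, a list that holds none of the members, summed to 5866 and 7728, 2247 and 6405, and 6380.5 and 4309.9 CPM in lymphatic endothelial-like cells, with the same order within each pair. Their part in the result was not tested.

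Outside the endothelium edgeR called no member by label. EdgeR called 0.0% of all genes higher in fibroblast-like, 0.00858% in B cell-like and 0.0334% in T cell-like cells of the CD45 fraction and 0.0% lower in each, and 0.0% either way in the lymphocytes of the CD31 fraction. In fibroblast-like cells edgeR and DESeq2 called 0 of 33 members, and 5 were lower and 0 higher at an unadjusted p under 0.05, against 4.96% and 4.79% of all genes. In B cell-like cells of the CD45 fraction 1 was higher and 8 lower at that level, against 7.56% and 6.77%, and in T cell-like cells 3 and 5, against 6.72% and 7.55%. In fibroblast-like cells 4 members, Manf, Creld2, Sdf2l1 and Dnajb11, were called lower when either vehicle library was left out, where 1.80% of all genes (without the Cre-positive one) and 1.82% (without the Cre-negative one) were. DESeq2 called 0 members in those B cell-like and 1, Sec61b, in those T cell-like cells. Of the CD31 fraction, B cell-like cells had 0 of 32 members at an unadjusted p under 0.05, against 0.638% of all genes higher and 0.559% lower. T cell-like cells there also had 0 of 32, against 0.834% and 0.695%, and DESeq2 called none in either. Over Hspa5, Sdf2l1, Xbp1, Atf4, Ddit3 and Herpud1, the label difference on the log2 scale ran from -0.51 to 0.21 in fibroblast-like, -0.30 to 0.01 in B cell-like and -0.24 to 0.09 in T cell-like cells of the CD45 fraction. It ran from -0.16 to 0.25 in B cell-like and -0.06 to 0.10 in T cell-like cells of the CD31 fraction, and the lowest adjusted p among these was 0.311.

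Whether the label difference itself differed between classes was tested with an interaction over the classes of the same CD31 libraries, and no member was called, nor any gene (0.0% higher and 0.0% lower in all 3 comparisons). Between HEV-like and T cell-like cells, 10 of 34 members had a more negative label difference in HEV-like cells at an unadjusted p under 0.05 and none a more positive one, against 1.58% and 1.37% of all genes. The difference of differences was -0.54 (SE 0.13, p 0.00230, adjusted p 1.00) for Hsp90b1, -0.61 for Hspa5, -0.65 for Sdf2l1, -0.57 for Xbp1 -0.52 for Calr, -0.20 for Atf4, -0.14 for Ddit3 and -0.20 for Herpud1 on the log2 scale, with edgeR's test and Benjamini-Hochberg adjustment. Between HEV-like and other blood endothelial-like cells 5 of 35 members reached that level, all more negative in HEV-like cells, against 2.05% of all genes (1.81% more positive): Dnajb9, Xbp1, Ppp1r15a, Edem1 and Sec61b. Between other blood endothelial-like and T cell-like cells 5 of 35 did, against 1.17% (1.12% more positive): Hspa5, Hsp90b1, Calr, Pdia4 and Sdf2l1. Over Hspa5, Sdf2l1, Xbp1, Atf4, Ddit3 and Herpud1 the values ran from -0.29 to 0.06 between HEV-like and other blood endothelial-like cells and from -0.70 to 0.09 between the latter and T cell-like cells. Without the day 7 library labelled Cre-positive, Ppp1r15a was called between HEV-like and other blood endothelial-like cells, as were 0.0634% of all genes on the higher and 0.0792% on the lower side.

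The comparison of day 3 with vehicle asks how the members move in the early inflamed node, with both Cre labels in the fit. Fibroblast-like cells had the most calls. There 12 of 33 members rose and 2 fell by edgeR's quasi-likelihood test with Benjamini-Hochberg adjustment, while 11.6% of all genes rose and 11.4% fell. Hspa5 had 508 and 588, 1051 and 962, and 555 and 440.2 CPM and rose by a log2 of 0.90 (SE 0.21, adjusted p 0.0228). Both day 3 libraries stood above the other 4. Pdia6, a disulfide isomerase, rose from 282 and 270.4 to 645 and 499 CPM, by 1.07 (SE 0.19, adjusted p 0.00884).

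Manf (ENSMUSG00000032575, chromosome 9, 106838312 to 106891979), a secreted ER-stress protein that binds BiP, had 153 and 169.6, 532 and 328, and 172 and 108 CPM in fibroblast-like cells and rose by 1.38 (SE 0.26, adjusted p 0.0116). Creld2 (ENSMUSG00000023272, chromosome 15, 88819646 to 88826683) had 25.2 and 19.2, 62.0 and 41.8, and 28.2 and 19.01 CPM and rose by 1.24 (SE 0.17, adjusted p 0.00396). Sec61b had 285 and 249, 779 and 525, and 338 and 249 CPM and rose by 1.30 (SE 0.19, adjusted p 0.00523). For all 3 genes the 2 day 3 libraries were the highest, and the one labelled Cre-negative was above the other.

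Sdf2l1 had 27 and 44.2, 137 and 70.2, and 37.8 and 18.2 CPM in fibroblast-like cells and rose by 1.45 (SE 0.41, adjusted p 0.0426). The other members that rose were Hsp90b1, Pdia3, Pdia4, Dnajb11, Derl2 and Selenos, by log2 changes of 0.66, 0.71, 0.93, 0.71, 0.88 and 0.58. The 2 that fell were Atf4, at 115 and 118, 75.2 and 81.3, and 89.5 and 116 CPM with -0.54 (SE 0.16, adjusted p 0.0472), and Ppp1r15a, at 106 and 165, 43.7 and 73.7, and 109 and 64.3 CPM with -1.19 (SE 0.34, adjusted p 0.0440). Xbp1 (0.30 (SE 0.20, adjusted p 0.314)), Ddit3 (0.20 (SE 0.16, adjusted p 0.389)) and Herpud1 (0.30 (SE 0.15, adjusted p 0.183)) were not called.

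The makeup of the class differed at day 3 as well. In the order above, the cycling markers summed to 19.6 and 1.88, 254 and 177, and 5.64 and 17.99 CPM, the pericyte markers to 617 and 479.9, 2619 and 1897, and 1340 and 792 CPM, and the fibroblast markers to 28765 and 21629, 15690 and 17031, and 20309 and 25875 CPM. The day 3 libraries were the highest for cycling and pericyte markers and the lowest for fibroblast markers, and the part of these in the result was not tested. DESeq2 called 13 members, 12 of them higher, and Ppp1r15a was lower while Atf4 was not called.

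The number of calls in fibroblast-like cells moved with single libraries, in fits that keep 1 residual degree of freedom and take the spread of a lone library from the other groups. Without the day 3 library labelled Cre-negative none of the members was called (0.216% of all genes higher and 0.769% lower) and without the one labelled Cre-positive 5 were (4.26% and 3.74%). Without the vehicle library labelled Cre-negative 7 were called (9.06% and 10.4%), without the one labelled Cre-positive 17 (16.7% and 13.8%), and without the day 7 libraries labelled Cre-negative and Cre-positive 10 and 8 (10.4% either way, and 9.88% and 9.62%). In the fits without 1 library the log2 change of Manf ran from 0.94 to 1.91, that of Hspa5 from 0.64 to 1.22 and that of Sdf2l1 from 0.63 to 2.48. With the cluster led by Ptn included 5 were called, and with free RNA subtracted 9. Of 36 other secretory pathway genes 18 rose there and none fell, led by Ssr2 (1.35), Ssr4 (1.17) and Ddost (1.03) on the log2 scale, and of 22 other ER folding genes 8 rose, led by Pdia5 (1.28). Of 26 ATF4 targets 5 rose and 3 fell, of 14 cytosolic heat shock genes none was called, and of 7 ER-phagy receptors 2 fell. Of 11 dissociation immediate-early genes 10 fell, led by Fosb at -2.52. That list moved in the same comparison as Ppp1r15a and Atf4, and its part in the result was not tested.

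In HEV-like cells 2 of 34 members rose at day 3 and none fell, where 1.04% of all genes rose and 1.08% fell. Manf had 132 and 148, 396 and 268, and 179 and 145 CPM and rose by 1.21 (SE 0.20, adjusted p 0.0280). Creld2 had 15.9 and 15.7, 37.5 and 29.8, and 17.1 and 16.3 CPM and rose by 1.08 (SE 0.18, adjusted p 0.0292). The day 3 libraries were the highest of the 6 for both, with the one labelled Cre-negative above the other.

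Hspa5 had a change of 0.73 (SE 0.17, adjusted p 0.0587), Sdf2l1 of 0.68 (SE 0.15, adjusted p 0.0569), Sec61b of 0.71 (SE 0.16, adjusted p 0.0551) and Ppp1r15a of -0.68 (SE 0.16, adjusted p 0.0645), short of the threshold. Xbp1 had 0.17 (SE 0.14, adjusted p 0.522), Atf4 -0.27 (SE 0.18, adjusted p 0.401), Ddit3 -0.08 (SE 0.20, adjusted p 0.846) and Herpud1 0.01 (SE 0.14, adjusted p 0.969). At an unadjusted p under 0.05, 16 members were higher and 2 lower, against 11.8% and 11.5% of all genes. Both day 3 libraries stood above both vehicle libraries for 20 of the 34 members that passed the filter, against 28.3% of all genes, and below for 4, against 26.9%. Those 4 were Atf4, Trib3, Ppp1r15a and Sel1l. With either day 3 library left out, which leaves 1 library at day 3 and 1 residual degree of freedom, no member was called, and few genes were (0.0362% higher and 0.0271% lower without the Cre-positive one, 0.0% without the other). Manf then had a log2 change of 1.42 or 1.00 and Creld2 of 1.19 or 0.97. Without the vehicle library labelled Cre-negative 7 members were called (5.0% of all genes higher and 6.1% lower), without the one labelled Cre-positive 4 (0.921% and 0.811%) and without the day 7 library labelled Cre-negative 4 (2.91% and 3.01%), and DESeq2 called 4, Hspa5, Sec61b and Manf higher and Ppp1r15a lower, but not Creld2.

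The pathway around the members moved as follows in HEV-like cells. Of 36 secretory pathway genes 4 rose, led by Ostc (0.85), Spcs2 (0.78) and Sec61g (0.75) on the log2 scale. Of 22 other ER folding genes 2 rose, Fkbp11 (1.81) and Serp1 (1.00), and of 14 cytosolic heat shock genes 3 rose, Hspd1 (1.28), Hspe1 (1.11) and Hsp90aa1 (0.83). None of 23 ATF4 targets or 7 ER-phagy receptors was called, and 7 of 11 immediate-early genes fell.

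**Figure D5:**
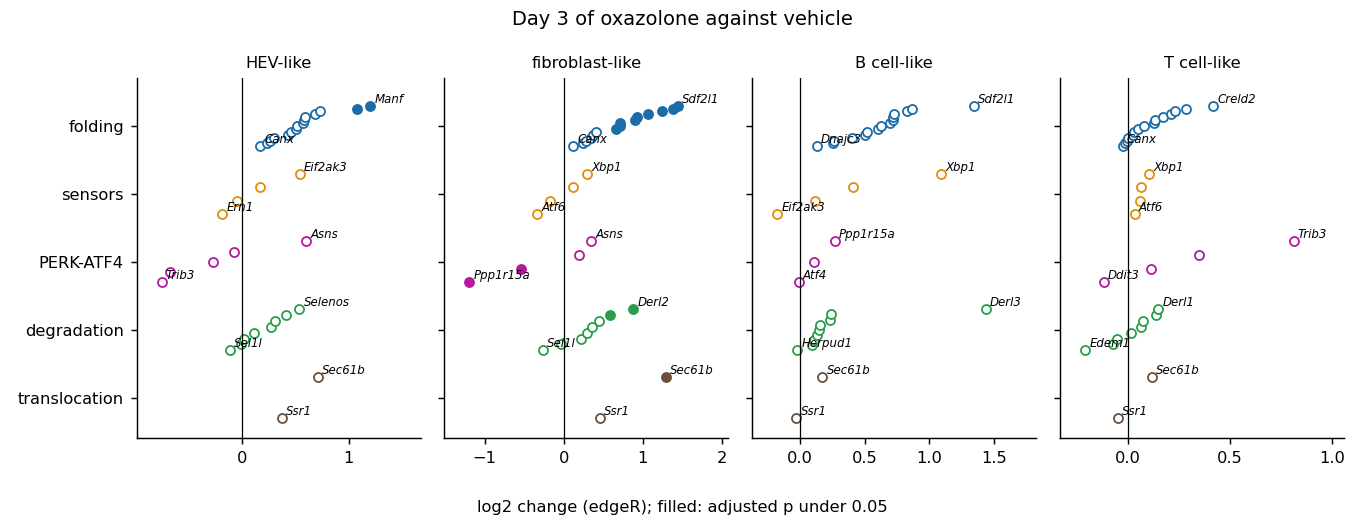
Log2 change of each member tested at day 3 against vehicle, 1 point per gene, grouped by arm, in HEV-like, fibroblast-like, B cell-like and T cell-like cells (the last 3 from the CD45 fraction), filled where the adjusted p was under 0.05. Folding genes of fibroblast-like cells reach 1.45, and Atf4 and Ppp1r15a lie below 0 there.

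B cell-like cells of the CD45 fraction had no call by edgeR at day 3 among members or other genes (0.0% higher and 0.0% lower), although 14 of 33 members were higher and none lower at an unadjusted p under 0.05, against 5.27% and 4.22% of all genes. DESeq2 called 7, and with UMI totals edgeR called Sdf2l1. Sdf2l1 had 29.6 and 25.3, 79.0 and 60.8, and 25.9 and 25.4 CPM and a change of 1.34 (SE 0.13, adjusted p 0.0553). Xbp1 had 35.4 and 28.6, 71.8 and 64.7, and 33.0 and 34.0 CPM and a change of 1.09 (SE 0.14, adjusted p 0.0557). For both genes the 2 day 3 libraries stood above the other 4. Without the day 7 library labelled Cre-negative 11 members were called higher, where 1.33% of all genes were, and without the one labelled Cre-positive 7, where 0.446% were. Hspa5 had 0.72 (SE 0.13, adjusted p 0.154), and Atf4 (-0.01), Ddit3 (0.11) and Herpud1 (-0.02) had smaller log2 changes. Both day 3 libraries stood above both vehicle libraries for 22 of the 33 members that passed the filter, against 18.2% of all genes, and for 18 of 32 in CD31-fraction B cell-like cells, against 14.2%. In that fraction B cell-like cells had 11 of 32 members higher and none lower at an unadjusted p under 0.05, against 1.84% and 2.17% of all genes. After adjustment none was called, nor by DESeq2, where 0.0% of all genes were called higher and 0.00997% lower, but edgeR called 3 members higher without either day 7 library, where 0.3% (without the Cre-negative one) and 0.296% of all genes were. Sdf2l1 was counted there at 32.7 and 24.2, 77.0 and 64.8, and 25.0 and 30.4 CPM and Xbp1 at 41.5 and 28.0, 68.0 and 68.7, and 34.8 and 42.0 CPM, with log2 changes of 1.33 and 0.99. Hspa5 had 0.78, Atf4 0.08, Ddit3 -0.16 and Herpud1 -0.24 there.

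In the other blood endothelial-like cells no member of 35 was called at day 3 by edgeR (0.0% of all genes either way) and 1 by DESeq2. There 11 were higher and none lower at an unadjusted p under 0.05, against 7.45% and 4.52% of all genes. Manf, at 113 and 118, 213 and 169, and 123 and 105 CPM, had 0.78 (SE 0.13, adjusted p 0.303). In lymphatic endothelial-like cells 3 of 34 were higher and none lower at that level, against 2.8% and 2.39%. In T cell-like cells 2 of 33 were higher in the CD45 fraction, against 3.07% and 2.75%, and 2 of 32 in the CD31 fraction, against 1.24% and 1.25%. None of these 3 classes had a member called by edgeR or DESeq2, nor any gene by edgeR (0.0%). Over Hspa5, Sdf2l1, Xbp1, Atf4, Ddit3 and Herpud1 the log2 change at day 3 ran from -0.14 to 0.77 in other blood endothelial-like, -0.04 to 0.42 in lymphatic endothelial-like, -0.12 to 0.29 in CD45-fraction T cell-like and -0.03 to 0.61 in CD31-fraction T cell-like cells. Whether classes differ in their change at day 3 was not tested.

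At day 7 no member was called against vehicle in any of the 8 classes by edgeR or DESeq2, with a lowest adjusted p of 0.558 in fibroblast-like cells. There edgeR called 0.00712% of all genes higher and 0.107% lower, and 0.0% either way in the other 7 classes. Without the vehicle library labelled Cre-negative 3 members of fibroblast-like cells were called lower at day 7, where 3.74% of all genes were, and without the day 7 one 1, where 0.812% were. In HEV-like cells 1 member was higher and 1 lower at an unadjusted p under 0.05, against 1.16% and 1.88% of all genes, and in the other 7 classes none reached it. The shares of all genes higher and lower at that level were 0.526% and 0.694% in other blood endothelial-like, 0.202% and 0.496% in lymphatic endothelial-like, 0.459% and 1.09% in B cell-like and 0.334% and 0.602% in T cell-like cells of the CD31 fraction. They were 4.29% and 6.15% in fibroblast-like, 1.48% and 2.48% in B cell-like and 0.978% and 1.33% in T cell-like cells of the CD45 fraction. In HEV-like cells the changes were 0.06 for Hspa5, -0.07 for Sdf2l1, 0.11 for Xbp1, -0.04 for Atf4, 0.10 for Ddit3 and -0.16 for Herpud1 on the log2 scale. Over the same 6 genes the changes ran from -0.11 to 0.10 in other blood endothelial-like, -0.19 to 0.11 in lymphatic endothelial-like, -0.34 to 0.17 in B cell-like and -0.12 to 0.16 in T cell-like cells of the CD31 fraction. In the CD45 fraction they ran from -0.56 to 0.07 in fibroblast-like, -0.06 to 0.10 in B cell-like and -0.04 to 0.21 in T cell-like cells. The difference between day 3 and day 7 was not tested.

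Some members given above without their levels in HEV-like cells had the following CPM there, from the lowest to the highest library. Canx, the membrane-bound partner of calreticulin, had 216.5 to 276.4 and Dnajb9, the J protein that returns IRE1 to rest, 34.1 to 67.1. Among degradation genes Syvn1 had 12.6 to 19.7 and Selenok 198.4 to 269.2. Derl3 had at most 0.3 CPM and Chac1, a glutathione-degrading enzyme downstream of ATF4, at most 0.8, and both stayed under 1 CPM in every library of that class.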

How the data were processed

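RNA of single lymph node cells was counted in 12 libraries, with 1 library per group, and groups were taken from the labels. Per the file headers, the authors deposited 1 sparse matrix per library, in which each entry is a whole-number UMI count. Cell Ranger 7.0.1 and build mm10 are named in the submitters' processing notes, while the file headers name Cell Ranger 4. Gene annotation and strand handling are not given in the sources used here, so overlapping and antisense genes cannot be told apart. No column of another sample was present (0 unused).

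Barcodes needed 1000 or more UMIs, 500 or more genes, and no more than 10% of UMIs from mitochondrial genes. Scrublet scores (scanpy 1.11.5) marked doublets. Its caller marked under 0.5% of cells in 3 libraries, so the highest-scoring 0.8% for each 1000 barcodes was removed everywhere, 4.78% to 9.31% per library, although the barcodes so removed were poorer in UMIs than the rest in 2 CD31 libraries. Each fraction was clustered together with the members and gene lists left out (2000 variable genes, 30 components, 20 neighbours, Leiden resolution 1 with leidenalg 0.10.2), and clusters were named from fixed markers.

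For each class in each library UMIs were added up and expressed as CPM, with exact Poisson intervals at 95% that cover counting error only. The sums were tested with edgeR 4.0.16 (R 4.3.3): TMM scaling, its expression filter, a quasi-likelihood test and Benjamini-Hochberg adjustment over all genes at 0.05. The model was treatment and Cre label within a class, library and class between classes, and a class by label interaction, with SEs derived from the F statistic of each log2 change. DESeq2 1.42.0 was an alternative. On counts simulated from HEV-like cells, 86% of genes changed 2-fold by label and 71% of those changed at day 3 were recovered, and in fibroblast-like cells 64% and 43%.

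The members, gene lists and comparisons were chosen with earlier results of these data known. Hspa5, Sdf2l1, Xbp1, Atf4, Ddit3 and Herpud1 were given in every comparison, in some only as the range of their values, with every member called, or the 3 largest of an arm between classes where over 6 were called, and of other lists at most the 3 largest. Further members named for a count or a p-value short of the threshold were chosen after their values were seen. Symbol Ddit3 has a second identifier with 0 UMIs, which was left out. Plasma-like cells were tested only in libraries with at least 20 of them.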

Additional observations from a re-analysis of the deposited data

Results flagged for a closer look

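An added feature, mRFP, which is no mouse gene and enters no comparison here, was counted at 930 UMIs in the day 3 CD31 library labelled Cre-positive, 364 in the vehicle one and 342 in the day 7 one. The only library labelled Cre-negative that lists it, the day 7 CD31 library, had 0, and 3 UMIs is the limit taken for a count of 0.

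For some members the label difference had opposite signs in all 3 pairs of 2 classes, and log2 values below are means over the pairs. Creld2 was higher under the Cre-positive label in T cell-like cells (0.32) and lower in HEV-like (-0.20), other blood endothelial-like (-0.20) and lymphatic endothelial-like cells (-0.59), with gaps of -0.52, -0.51 and -0.90. The interaction fitted with edgeR gave -0.55 (SE 0.28, p 0.0824, adjusted p 1.0 by Benjamini-Hochberg) for HEV-like against T cell-like and -0.53 (SE 0.25, p 0.0573, adjusted p 1.0) for other blood endothelial-like against T cell-like cells, and the lymphatic gap was not tested. The remaining gaps were not tested either. Derl2 had -0.20 in lymphatic endothelial-like and 0.04 in T cell-like cells, a gap of -0.24. In the CD45 fraction Atf4 had -0.18 in B cell-like and 0.12 in fibroblast-like cells, a gap of -0.30, and Syvn1 had -0.17 in B cell-like and 0.09 in T cell-like cells, a gap of -0.25.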

How the results depend on the processing

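Counts of called members between classes, both directions added together, stayed within 1.5 times under every alternative run, although with UMI totals HEV-like against other blood endothelial-like cells went from 26 higher and 3 lower to 17 and 8. Leaving out 1 library gave 27 to 29 (HEV-like against other blood endothelial-like), 24 to 28 (lymphatic against other blood endothelial-like), 26 to 31 (T cell-like against B cell-like), 34 to 35 (plasma-like against B cell-like) and 24 to 26 (fibroblast-like against B cell-like). Counts by treatment and label did not. Without the expression filter, which adds genes to the test, edgeR called 1 member by label in HEV-like, 1 in lymphatic endothelial-like, 1 in CD45-fraction B cell-like and 2 in CD45-fraction T cell-like cells, and at day 3 11 in HEV-like, 1 in other blood endothelial-like, 3 in CD31-fraction B cell-like and 11 in CD45-fraction B cell-like cells. DESeq2 called 4, 1 and 7 at day 3 in HEV-like, other blood endothelial-like and CD45-fraction B cell-like cells and 1 by label in CD45-fraction T cell-like cells. For CD45-fraction B cell-like cells at day 3, 3 were called with free RNA subtracted, 2 with doublet-marked barcodes kept and 1 with UMI totals in place of TMM. For fibroblast-like cells at day 3, 9 were called with free RNA subtracted and 5 with the cluster led by Ptn included. Leaving out 1 library gave, at day 3, 0 to 7 in HEV-like, 0 to 3 in CD31-fraction and 0 to 11 in CD45-fraction B cell-like and 0 to 17 in fibroblast-like cells, where 0 to 3 were called at day 7. By label it gave 0 to 2 in HEV-like, 0 to 4 in fibroblast-like and 0 to 1 in B cell-like and in T cell-like cells of the CD45 fraction, and 0 to 1 for the interaction of HEV-like and other blood endothelial-like cells. Among members called with TMM, signs turned for Selenok (0.012, Prnd-led cluster included) and, with UMI totals, for Atf4 (-0.078) and Creld2 (-0.016) between HEV-like and other blood endothelial-like cells, for Eif2ak3 (-0.288), Canx (-0.012) and Atf4 (-0.175) between plasma-like and B cell-like cells, and for Dnajb11 (0.019) between fibroblast-like and B cell-like cells. Of single genes, 1379 of 1446 values under other alternatives and 956 of 1045 with a library left out kept direction and side of the threshold. Apart from construction of the alternatives, the cause was not tested. No share of all genes is given here for DESeq2, UMI totals, free RNA subtracted, doublet-marked barcodes kept, a cluster included or no expression filter. Counts of members under those alternatives therefore cannot be set against a background. Of 3744 levels, 94.07% stayed within the counting interval with free RNA subtracted, 96.82% with doublets kept and 98.88% in cells with 2000 or more UMIs. The UMI-total scaling, the 2 cluster choices and the plasma-like and fibroblast-like fits between classes were chosen after seeing the data. No change smaller than 2-fold was simulated, so what the fits with 2 residual degrees of freedom would miss below that size was not tested. Larger changes may be missed more often than in the simulation, whose genes all shared the same dispersion. Fewer cells of a state and less RNA per cell cannot be told apart in summed counts. No fit by replicate number could be made, since the labels carry none and each group is 1 library. Labels were compared within treatments, as treatment enters those fits as a term, and classes within libraries.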

Other observations

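Plasmacytoid dendritic-like cells, which make and secrete type I interferon, were described above by their sum alone. Each of the 6 CD45 libraries held 31 to 91 of them, so single genes rest on few cells, and no test was made. The estimate of free RNA was 12.8% to 50.0% of their UMIs, which counts any immunoglobulin or J chain transcripts of their own as free RNA. The part of free RNA in the values was not tested. Sec61b, the channel subunit, had 1040.5 to 1571 CPM there, and Hsp90b1 945 to 1414 CPM. Among the sensors Xbp1 had 227 to 362 CPM, Atf6 111 to 195 CPM and Ern1 93.7 to 172 CPM. Derl3, which plasma-like cells held at 179 to 277 CPM in the 3 libraries compared above, had 2.60 to 9.27 CPM in plasmacytoid dendritic-like cells and 2.24 to 26.9 CPM in the free RNA of the CD45 libraries.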
